A study of Mus musculus with 6 samples.

Results

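The nuclear-encoded subunits of respiratory complexes II to V were examined in mouse 4-cell embryos whose transcription had been blocked for a time with DRB. Members were taken by gene symbol: the Sdha to Sdhd genes, symbols starting with Uqcr, Cyc1, Cycs, symbols starting with Cox4 to Cox8 followed by a letter, and symbols starting with Atp5, leaving out those with -ps. This gave 51 of 55335 rows, with 4 for complex II, 10 for complex III including cytochrome c, 19 for complex IV and 18 for complex V. They carry 50 symbols, because Atp5o has 2 identifiers.

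DRB, a dichlorinated benzimidazole riboside, inhibits transcription by RNA polymerase II. In the DRB group, zygotes at 6 h post-fertilization received 20 µM DRB in KSOM, an embryo culture medium, were incubated for 20 h, washed and cultured in fresh KSOM for 26 h to the 4-cell stage. The Con group comprised 4-cell embryos, for which the labels state neither vehicle nor culture times. Each group had 3 Smart-Seq2 libraries, which start from oligo-dT priming of polyadenylated RNA and full-length cDNA amplification. The labels state neither the strain, nor the number of embryos per library, nor whether libraries came from separate matings, so each p-value reflects library-to-library spread that may be technical in part. All 10 oocyte-heritage and 4-cell marker genes reached 1 FPKM in at least 3 libraries. Of 9 cumulus cell genes 2 did, Gja1 (121 to 364 FPKM) and Amhr2 (17.9 to 28.2 FPKM), while Has2, Ptx3, Cyp11a1 and Inha were at 0 in all 6 libraries, and the list summed to 213 to 387 FPKM in Con and 144 to 276 FPKM in DRB. Of 6 blood genes 4 reached it, led by the globin gene Hba-a1 (24.8 to 68.9 FPKM), with sums of 74.3 to 114 FPKM in Con and 47.0 to 87.3 FPKM in DRB. Of 7 sperm genes 2 did, with sums of 12.7 to 22.7 FPKM in Con and 12.5 to 24.2 FPKM in DRB. The part of such cells in the member values was not tested.

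The respiratory chain sits in the inner mitochondrial membrane. Complex II (succinate dehydrogenase) feeds electrons from succinate to ubiquinone, complex III passes them to cytochrome c, complex IV (cytochrome c oxidase) reduces oxygen, and complex V (ATP synthase) uses the resulting proton gradient to make ATP. Complexes III, IV and V also contain subunits encoded by the mitochondrial genome, whereas complex II is encoded wholly in the nucleus. Before implantation the mouse embryo relies on mitochondria inherited from the oocyte.

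Promoters are shown first because the DRB values of many members lay below those of Con. RefSeq promoter windows (GRCm38.p6, from 250 bases before to 50 bases after the start) matched 36 of the 48 members tested. Each line below gives the 120 bases before the RefSeq start, 5′ to 3′ on the gene's strand. Capitals mark whole matches on either strand to GCGCANGCG, the core of sites for the respiratory gene regulator NRF1, or to CCGGAAG, the core of ETS-type sites that GABP binds. Uqcr11 (chr10:80406822-80406941 on the minus strand) is shown as the member that passed the test, and Cox6a1 (chr5:115348959-115349078 on the minus strand) and Atp5g2 (chr15:102671048-102671167 on the minus strand) as members whose 3 DRB libraries all lay below the 3 Con libraries.

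Uqcr11: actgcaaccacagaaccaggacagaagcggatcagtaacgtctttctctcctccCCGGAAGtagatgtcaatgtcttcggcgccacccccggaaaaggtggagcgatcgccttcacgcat
Cox6a1: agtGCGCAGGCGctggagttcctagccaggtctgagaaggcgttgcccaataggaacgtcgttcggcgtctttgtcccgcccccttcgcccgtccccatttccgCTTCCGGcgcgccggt
Atp5g2: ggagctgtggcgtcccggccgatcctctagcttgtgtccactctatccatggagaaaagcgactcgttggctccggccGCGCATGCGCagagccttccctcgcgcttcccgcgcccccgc

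Sdha (chr13:74350241-74350360 on the minus strand) and Cycs (chr6:50566570-50566689 on the minus strand) are shown as members that also hold GCGCANGCG but whose libraries overlapped between groups.

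Sdha: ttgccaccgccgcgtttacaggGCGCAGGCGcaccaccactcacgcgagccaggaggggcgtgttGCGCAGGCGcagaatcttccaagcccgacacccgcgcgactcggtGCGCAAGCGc
Cycs: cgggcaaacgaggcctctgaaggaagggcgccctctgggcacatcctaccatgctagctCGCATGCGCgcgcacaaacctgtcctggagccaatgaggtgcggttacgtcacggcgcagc

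GCGCANGCG was present in 12 of 36 member windows (33.3%), against 6.47% of all 27025 windows. Of the 18 members tested whose DRB libraries all lay below Con, 12 had a window. GCGCANGCG was present in 7 of these 12 windows and in 5 of the other 24. The match of Uqcr11 runs past the printed bases and is not marked above. Atp5c1, Atp5d, Atp5f1, Atp5g1 and Atp5j2, all wholly below Con, held neither GCGCANGCG nor CCGGAAG and are not printed. CCGGAAG was also present in 12 of 36 windows, against 9.12% of all, and here both kinds of member had the same share (4 of 12 and 8 of 24). CCAAT was found in 21 of 36 windows (37.9% of all) and AAGATGGCG, a YY1 motif, in 1 of 36 (1.49% of all). Both strands were searched, matches of 1 motif could overlap, and no test was run on these counts.

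Levels are given as FPKM, fragments per kilobase of transcript, scaled to the mapped fragments of a library. Of the 51 rows, 48 reached 1 FPKM in at least 3 libraries and were tested with limma on log2(FPKM + 1) within a fit of all 11893 such genes. The others were Cox6a2 and Cox8b, the heart and skeletal muscle isoforms of their subunits, at 0 in all 6 libraries, and the second Atp5o identifier, with at most 0.15 FPKM. Mean levels over the 6 libraries ran from 2.57 FPKM for Cox8c to 1420.0 FPKM for Atp5g1. Complex II stood lowest, with a median member at 10.1 FPKM, against 174 for complex III, 354 for complex IV and 282 for complex V.

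Among the 48 members tested, 38 had a negative log2 fold change (DRB minus Con) and the median was -0.46, against -0.09 over all genes. At an adjusted p below 0.05, 1 member was lower, Uqcr11, where 0.95% of all genes tested were, and 0 were higher, where 1.53% of all genes were. The unadjusted p was below 0.05 for 19 members in the lower direction, a share of 39.6% against 10.5% of all genes, and for 0 in the higher direction against 7.53%. All 3 DRB libraries lay below all 3 Con libraries in 18 members, 37.5% against 13.9% of all genes. They lay above in 0 members, against 9.85% of all genes. The members are subunits of shared complexes and not independent of one another.

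Over all genes, 113 were called lower and 182 higher. The split was 84 and 223 after median-of-ratios scaling, and 72 and 187 with mitochondrial genes left out of the FPKM total. Leaving those genes out moved the median of all genes from -0.09 to 0.02 and that of the members from -0.46 to -0.33. With that setting 34 of 48 members remained negative in sign and 13 had an unadjusted p below 0.05, all lower. Over all genes in that fit 6125 of 12511 were negative. An unadjusted p below 0.05 was reached by 7.4% of them in the lower and 8.83% in the higher direction. FPKM is scaled to the fragments of each library, so neither the number of contributing cells nor the RNA per cell was measured. Fewer contributing cells and less RNA per cell cannot be told apart in these libraries.

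**Figure D1:**
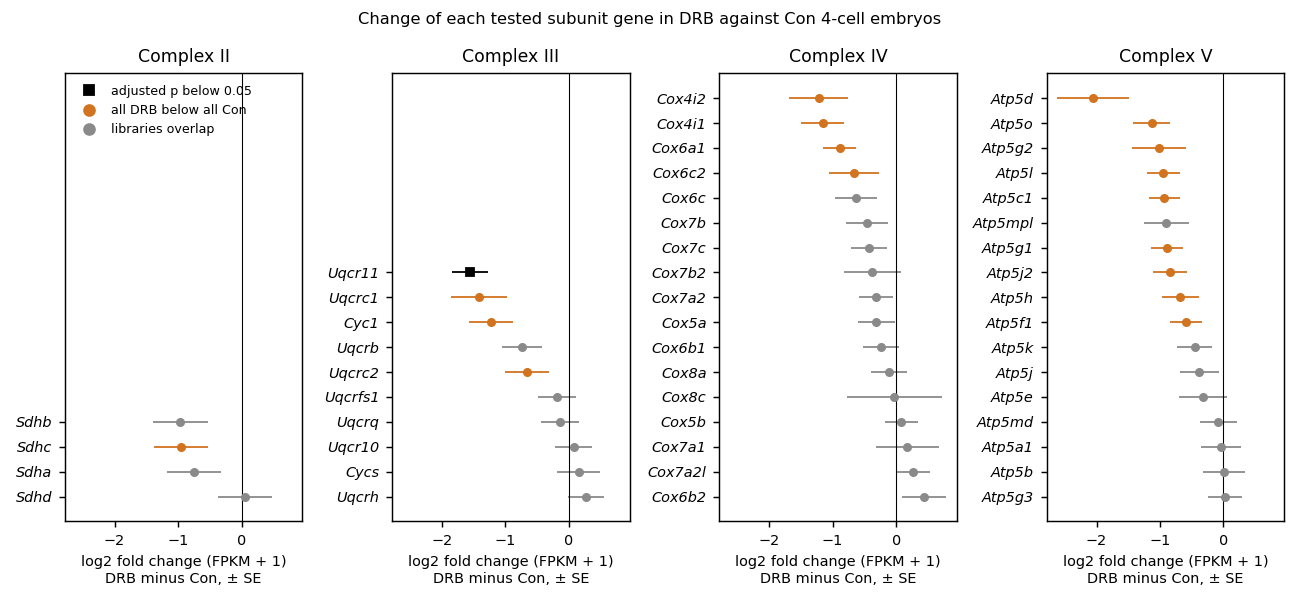
Log2 fold change on the log2(FPKM + 1) scale, DRB minus Con, with the limma SE, for each of the 48 members tested, by complex. The black square marks Uqcr11, the member with an adjusted p below 0.05, orange points mark other members whose 3 DRB libraries all lay below the 3 Con libraries, and grey points mark overlapping libraries. Most points of complex V lie left of 0, while Atp5md, Atp5a1, Atp5b and Atp5g3 lie near it.

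The DRB libraries were not alike. The first DRB library held the lowest of the 6 values in 27 of 48 members (56.2%), against 20.8% of all genes tested, and the third DRB library was the highest of the 3 DRB libraries in 34 members. Without the first DRB library the member median was -0.37, with 32 of 48 members negative. Over all genes in that fit the median was -0.16 and 6836 of 11257 were negative. An unadjusted p below 0.05 was reached by 14 members (29.2%) in the lower direction, against 11.3% of all genes in that fit. In the higher direction it was reached by 1 member (2.08%), against 6.32%. The estimated depth of that library, 23600000 fragments, was within the range of 22400000 to 25300000 over the 6 libraries. Mitochondrial genes took 12.2%, 18.7% and 20.0% of all FPKM in the Con libraries and 25.7%, 23.9% and 26.4% in the DRB libraries, and their part in the member values was measured only by the scaling given above.

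Complex II was expressed at low levels throughout. Sdhb, the iron-sulfur subunit, stood at 32.4, 38.1 and 31.6 FPKM in Con and at 15.5, 8.85 and 34.2 FPKM in DRB. The first 2 DRB libraries were far below Con, but the third lay within the Con range, and the log2 fold change of -0.96 ± 0.44 (SE) had an adjusted p of 0.274. Sdha, the flavoprotein that oxidises succinate, measured 7.19, 15.4 and 15.3 FPKM in Con and 7.18, 9.33 and 4.46 FPKM in DRB. Its groups overlapped, since the second DRB library lay above the first Con library, and the log2 fold change was -0.75 ± 0.43 (SE, adjusted p = 0.397).

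Of the membrane anchors, Sdhc had 6.14, 2.95 and 4.21 FPKM in Con and 2.33, 1.68 and 1.25 FPKM in DRB. All DRB values were below all Con values, with a log2 fold change of -0.96 ± 0.42 (SE, adjusted p = 0.260). Sdhd, the other anchor, had 16.0, 8.83 and 6.16 FPKM in Con and 7.55, 9.64 and 13.7 FPKM in DRB. Here the groups overlapped fully and the log2 fold change was 0.05 ± 0.43 (SE, adjusted p = 0.966).

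Complex III held the member that passed the test. Uqcr11, the smallest subunit of the complex, lies on chromosome 10 (GRCm38, 80402997 to 80406830, minus strand). It was measured at 211, 305 and 197 FPKM in Con and at 65.1, 75.1 and 98.8 FPKM in DRB. Each DRB library was at or below 98.8 FPKM and each Con library at or above 197 FPKM. The log2 fold change was -1.56 ± 0.29 (SE), a level 0.339 times that of Con, with an adjusted p of 0.0196. The call was kept in 3 of 6 fits that each left out 1 library. Without Con library 2, DRB library 1 or DRB library 2 the adjusted p was 0.0904, 0.0661 and 0.0647. With a trend on transcript GC content removed, an alternative chosen after seeing the data, the log2 fold change was -1.27 and the adjusted p 0.059. The transcript is 58.9% GC, against a median of 48.8% over all genes tested.

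The next lowest p-values in complex III belonged to subunits of the redox and core parts. Cyc1 (cytochrome c1, which hands electrons to cytochrome c) had 33.2, 21.8 and 27.6 FPKM in Con and 13.7, 8.27 and 11.8 FPKM in DRB. The groups were apart, with a log2 fold change of -1.22 ± 0.35 (SE, adjusted p = 0.0931). Uqcrc1, a core protein facing the matrix, had 45.4, 27.6 and 20.9 FPKM in Con and 14.4, 5.43 and 14.5 FPKM in DRB. Its log2 fold change was -1.41 ± 0.44 (SE, adjusted p = 0.123), again without overlap. The partner core protein Uqcrc2 was likewise lower in each DRB library (26.1, 17.1 and 30.3 FPKM) than in any Con library (55.0, 30.7 and 33.4 FPKM), by a narrow margin. The Rieske protein gene Uqcrfs1 differed little, with a log2 fold change of -0.19 ± 0.30 (SE, adjusted p = 0.806).

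The other small subunits were more abundant than Uqcr11, and their groups overlapped. Uqcrq, the most abundant member of the complex, had 1181, 1629 and 1187 FPKM in Con and 816, 1333 and 1593 FPKM in DRB. Its log2 fold change was -0.13 ± 0.30 (SE, adjusted p = 0.869). Uqcr10 measured 489, 871 and 929 FPKM in Con and 693, 755 and 886 FPKM in DRB, and Uqcrh, the hinge protein, 474, 509 and 591 FPKM against 443, 689 and 820 FPKM. Both overlapped between groups, with log2 fold changes of 0.08 ± 0.29 and 0.27 ± 0.28 (SE, adjusted p = 0.924 and 0.676). Uqcrb had 477, 657 and 579 FPKM in Con and 216, 372 and 487 FPKM in DRB, where the third DRB library reached the Con range and the log2 fold change was -0.74 ± 0.32 (SE, adjusted p = 0.252). Per length, Uqcrq and Uqcr10 thus stood far above the core protein and cytochrome c1 genes in both groups.

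Cycs, the mobile cytochrome c itself, averaged 184 ± 76.7 FPKM in Con and 195 ± 45.0 FPKM in DRB (SD, n = 3). Its value is uncertain, since 4 other annotated genes match its coding sequence at 95% identity or more, and together they summed to 323% of the Cycs level in Con. The sources used here do not give how fragments were shared among such copies.

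**Figure D2:**
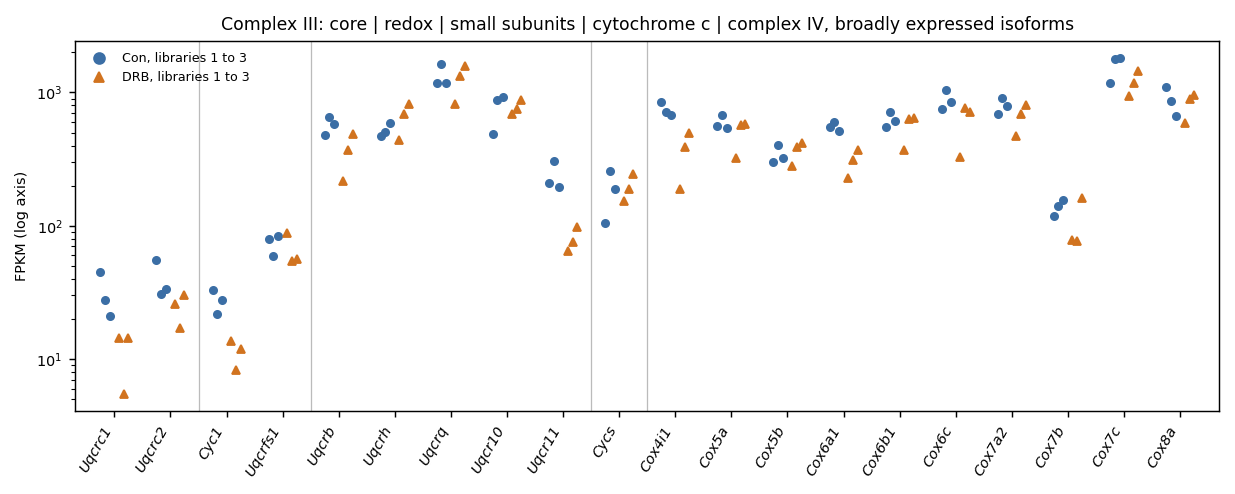
FPKM on a log axis in each library for the 10 complex III genes and the 10 broadly expressed complex IV isoforms, with 3 Con circles and 3 DRB triangles per gene in library order. For Uqcr11, Cyc1, Uqcrc1, Uqcrc2, Cox4i1 and Cox6a1 all triangles lie below all circles, and for the other 14 genes they overlap.

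In complex IV, none of the 17 members tested passed the adjusted threshold. The unadjusted p was below 0.05 for 3, all lower, a share of 17.6% against 10.5% of all genes. The median log2 fold change was -0.32. That median rested on the first DRB library, since without it the value was -0.04, with 9 of 17 members negative. Over all genes in the fit without that library the median was -0.16 and 6836 of 11257 were negative. Cox4i1, a subunit that binds adenine nucleotides and tunes the enzyme, had 844, 715 and 681 FPKM in Con and 188, 393 and 496 FPKM in DRB. All 3 DRB libraries were below Con, most of all the first, and the log2 fold change was -1.16 ± 0.34 (SE, adjusted p = 0.107). Emc8, on the opposite strand and overlapping Cox4i1, was also lower in DRB (57.4 FPKM in Con and 26.0 FPKM in DRB), and reads from the pair cannot be told apart where they overlap if counting ignored strand. In all, 8 members tested overlap an expressed gene on the other strand, among them Atp5a1 (Haus1), Atp5f1 (Wdr77) and Atp5j (Gabpa).

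Cox6a1, the broadly expressed form of subunit 6a, had 547, 598 and 512 FPKM in Con and 229, 313 and 370 FPKM in DRB. There was no overlap, and the log2 fold change was -0.89 ± 0.26 (SE, adjusted p = 0.103). Cox4i2, the alternative isoform of subunit 4 known from lung and oxygen-responsive expression, was low at 10.3, 15.3 and 10.7 FPKM in Con and 4.44, 8.85 and 2.14 FPKM in DRB. Its groups were apart too, with a log2 fold change of -1.22 ± 0.47 (SE, adjusted p = 0.199). Cox6c2, which the annotation calls a processed pseudogene of Cox6c, was the fourth complex IV row without overlap. It averaged 8.04 FPKM in Con, and Cox6c, 97.0% identical to it, stood at 879 FPKM there, so its values are uncertain.

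The remaining broadly expressed subunits were abundant and overlapped between groups. Cox7c, the most abundant of complex IV, had 1188, 1789 and 1828 FPKM in Con and 936, 1173 and 1447 FPKM in DRB, with a log2 fold change of -0.43 ± 0.28 (SE, adjusted p = 0.460). Cox8a had 1097, 870 and 671 FPKM in Con and 590, 896 and 955 FPKM in DRB, and its log2 fold change was -0.11 ± 0.29 (SE, adjusted p = 0.885). Cox6c measured 747, 1039 and 850 FPKM against 327, 761 and 712 FPKM, with a log2 fold change of -0.63 ± 0.34 (SE, adjusted p = 0.356). In Cox6c, as in Cox4i1, the first DRB library stood well below the other 2. Over the 10 broadly expressed isoforms, log2 fold changes ran from -1.16 to 0.08, the highest being that of Cox5b.

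Genes for tissue-restricted isoforms were detected as well, at lower levels. Cox6b2, the testis isoform of subunit 6b, had the highest log2 fold change of any member, 0.44 ± 0.35 (SE, adjusted p = 0.560). Its levels were 63.6, 65.0 and 42.1 FPKM in Con and 82.1, 111 and 48.5 FPKM in DRB, so the groups overlapped. Cox7b2 averaged 22.7 FPKM, Cox7a1 46.4 FPKM and Cox8c 2.57 FPKM over the 6 libraries. Cox7a2l, which encodes a supercomplex assembly factor, averaged 68.8 FPKM, but a near-identical processed pseudogene summed to 136% of its level in Con.

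Complex V had the most members with a low p. Of its 17 members tested, 15 had a negative log2 fold change, with a median of -0.68. In 10 members (58.8%) the unadjusted p was below 0.05, all lower, against 10.5% of all genes in that direction. In 9 all DRB libraries lay below Con, against 13.9% of all genes, while 0 passed at an adjusted p of 0.05. Without the first DRB library the median was -0.48, against -0.16 over all genes in that fit. In that fit 7 members (41.2%) had an unadjusted p below 0.05, all lower, against 11.3% of all genes. Without the third DRB library the median was -0.95, against -0.04 over all genes. The first DRB library was the lowest of all 6 in 13 of the 17.

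Within the F1 head and central stalk the genes parted. Atp5b, the catalytic β subunit, measured 742, 816 and 924 FPKM in Con and 1412, 640 and 624 FPKM in DRB. The first DRB library was the highest of the 6 and the other 2 were the lowest, with a log2 fold change of 0.00 ± 0.33 (SE, adjusted p = 0.996). Atp5a1, the α subunit that pairs with it, showed the same order of DRB libraries at 185, 102 and 92.0 FPKM, against 124, 104 and 146 FPKM in Con. In 33 of 48 members the first DRB library was instead the lowest of the DRB libraries.

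Atp5c1, the γ subunit that forms the rotating shaft, had 296, 244 and 241 FPKM in Con and 144, 123 and 140 FPKM in DRB. The 3 DRB libraries were close together at 136 ± 11.0 FPKM (SD, n = 3), well below Con, and the log2 fold change was -0.93 ± 0.24 (SE, adjusted p = 0.0721). Atp5d, the δ subunit at the foot of the shaft, had 56.8, 22.3 and 16.8 FPKM in Con and 2.16, 10.2 and 8.62 FPKM in DRB. It had the most negative log2 fold change of all members, -2.05 ± 0.57 (SE, adjusted p = 0.0872), with a wide spread within both groups. Atp5e, the ε subunit beside it, overlapped between groups, with a log2 fold change of -0.32 ± 0.38 (SE, adjusted p = 0.726).

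In the c-ring, the rotor in the membrane, Atp5g1 had the highest mean over the 6 libraries of all 51 members. It had 1666, 1963 and 1878 FPKM in Con and 781, 1028 and 1204 FPKM in DRB. Every DRB library was below every Con library, and the log2 fold change was -0.89 ± 0.26 (SE, adjusted p = 0.0971). Atp5g2 and Atp5g3 encode the same mature c subunit with other import sequences. Atp5g2 was scarce and also lower without overlap (18.4 ± 9.54 FPKM in Con and 8.11 ± 2.55 FPKM in DRB, SD, n = 3). Its near-identical copies summed to 32.3% of its level in Con and 37.7% in DRB. Atp5g3 was level, with Con at 93.2 ± 14.0 and DRB at 94.7 ± 15.0 FPKM (SD, n = 3), with a log2 fold change of 0.02 ± 0.27 (SE, adjusted p = 0.978).

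Members of the peripheral stalk, which holds the head still, all had negative log2 fold changes, from -1.13 to -0.38. Atp5o (OSCP, the subunit joining stalk and head) had 220, 169 and 186 FPKM in Con and 68.2, 79.6 and 120 FPKM in DRB. The groups did not overlap and the log2 fold change was -1.13 ± 0.29 (SE, adjusted p = 0.0666), the lowest adjusted p in complex V. Atp5f1 and Atp5h, the b and d subunits, also lay wholly below Con, at 178 ± 23.1 against 270.0 ± 46.8 FPKM and at 344 ± 125 against 529 ± 32.6 FPKM (SD, n = 3). Atp5j, the F6 subunit, overlapped, with a log2 fold change of -0.38 ± 0.30 (SE, adjusted p = 0.563).

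Among the membrane accessory subunits, which hold ATP synthase dimers, Atp5l (subunit g) had 402, 427 and 482 FPKM in Con and 186, 209 and 296 FPKM in DRB. It did not overlap between groups, and the log2 fold change was -0.94 ± 0.26 (SE, adjusted p = 0.0891). Its near-identical copies summed to 14.7% of its level in Con and 16.7% in DRB. Atp5j2 (subunit f) was also lower without overlap, with a log2 fold change of -0.84 ± 0.27 (SE, adjusted p = 0.129). Atp5md, a small subunit known as DAPIT, had 1063, 1320 and 1306 FPKM in Con and 778, 1384 and 1435 FPKM in DRB. The first DRB library was the lowest of the 6 and the other 2 were the highest, with a log2 fold change of -0.08 ± 0.29 (SE, adjusted p = 0.917). Without the first DRB library it was 0.20 (adjusted p = 0.654).

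**Figure D3:**
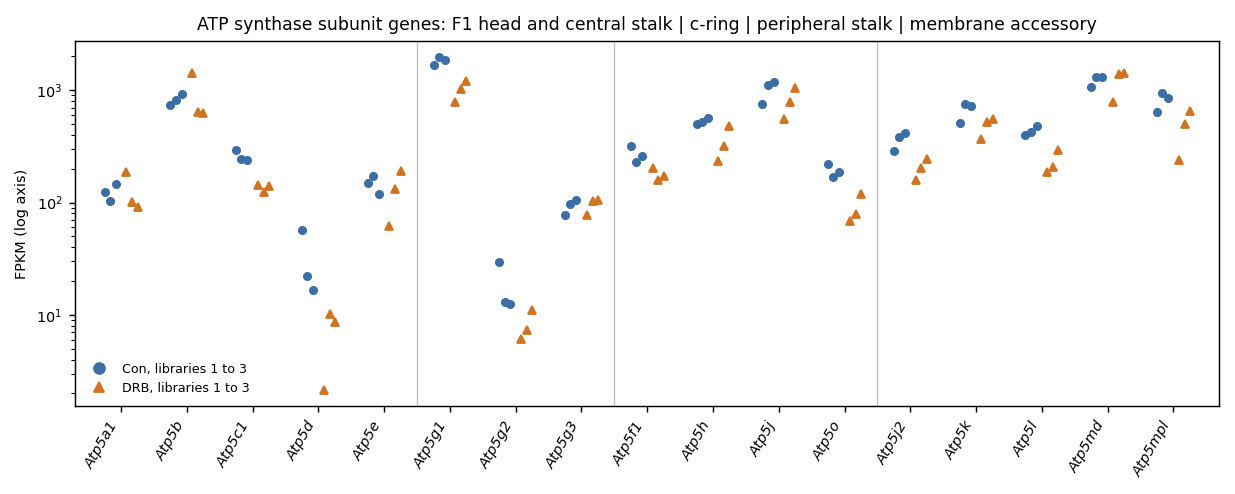
FPKM on a log axis in each library for the 17 complex V genes tested, grouped by their place in the enzyme, with 3 Con circles and 3 DRB triangles per gene in library order. Triangles lie wholly below circles in 9 genes, among them Atp5g1 and Atp5o, and the first triangle of Atp5b lies above all its circles.

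Shares within 6 isoform families were compared, and none passed after adjustment. Atp5g1 made up 94.0%, 94.7% and 94.1% of the FPKM of the 3 c subunit genes in Con and 90.3%, 90.4% and 91.3% in DRB. The share of Atp5g3 was 4.78 ± 0.45% in Con and 8.62 ± 0.62% in DRB (SD, n = 3). Cox7a2 made up 88.3 ± 0.99% of the Cox7a family in Con and 84.0 ± 0.50% in DRB (SD, n = 3). The groups did not overlap for Atp5g1, nor for Cox7a2 with Cox7a2l, the supercomplex assembly factor, counted in the family total. The exact two-sided permutation p was 0.1 for each, the smallest that 3 against 3 libraries can give, and 0.3 after Benjamini-Hochberg adjustment over 6 families. Cox4i, Cox6b, Cox7b and Cox8 shares overlapped between groups. The copies of Cox7a2l noted above enter the Cox7a total only through fragments assigned to that gene. Over Cox7a1 and Cox7a2 alone, the share of Cox7a2 overlapped between groups. The second Con library held 79.97 FPKM of Cox7a1 beside 911.1 FPKM of Cox7a2. The first DRB library held 23.4 FPKM beside 467.8 FPKM, a higher share of Cox7a2. The lack of overlap for Cox7a2 thus rested on counting Cox7a2l and does not show a shift between Cox7a1 and Cox7a2.

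**Figure D4:**
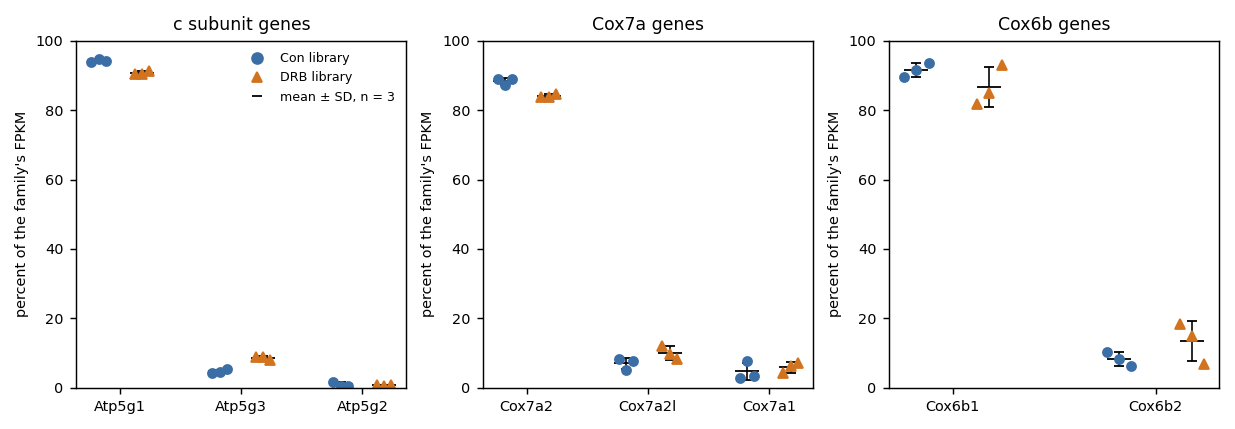
Percent of each family's summed FPKM taken by each isoform in every library (Con circles, DRB triangles), with the mean and SD of 3 libraries in black. Atp5g1 and Cox7a2 lead their families in both groups, at 94.3% and 88.3% in Con and 90.7% and 84.0% in DRB. The Cox7a family includes Cox7a2l. Cox6b1 overlaps between groups.

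Summed over all 51 rows, the members took 1.54%, 1.86% and 1.88% of all FPKM in Con and 1.16%, 1.35% and 1.47% in DRB. The ratio of mean summed FPKM, DRB over Con, was 0.628 for complex II, 0.904 for complex III, 0.768 for complex IV and 0.721 for complex V. As shares of all FPKM, complexes II, IV and V did not overlap between groups and complex III did. As shares of FPKM without mitochondrial genes, complex II alone did not overlap. There complex IV stood at 0.671% to 0.849% in Con and 0.518% to 0.737% in DRB, and complex V at 0.769% to 1.08% and 0.697% to 0.796%. The complex III ratio was 0.991 after median-of-ratios scaling and 1.02 without the first DRB library. These sums are dominated by a few abundant genes, and the complex V ratio was 0.767 without Atp5g1 and 0.684 without Atp5b. No test was made on sums over members.

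The 6 mitochondrially encoded subunits of complexes III to V had log2 fold changes of the opposite sign, from 0.21 to 0.73, and a median of 0.61. None passed the adjusted threshold, and 2 had an unadjusted p below 0.05. For mt-Cytb, the complex III subunit that binds ubiquinone, the values were 28857, 48423 and 47344 FPKM in Con and 57681, 68163 and 76526 FPKM in DRB, with a log2 fold change of 0.73 ± 0.33 (SE, adjusted p = 0.266). mt-Atp6, the proton channel subunit of complex V, had a log2 fold change of 0.54 ± 0.32 (SE, adjusted p = 0.413). All 6 were above 0 after median-of-ratios scaling, with the GC trend removed, with the replicate block and with each library left out, with a median of 0.72 after median-of-ratios scaling, 0.35 with the GC trend removed and 0.45 without Con library 1. The count with an unadjusted p below 0.05 was 0 after median-of-ratios scaling, with the GC trend removed and with the replicate block. With 1 library left out, that count was 5 without DRB library 1, where 6.32% of all genes were higher at that threshold. It was 1 without Con library 1, 1 without Con library 2 and 0 in the other fits without 1 library.

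Nuclear over mitochondrially encoded summed FPKM, a ratio within each library that does not depend on its scaling, was 0.109, 0.0902 and 0.0811 for complex III in Con and 0.0438, 0.0513 and 0.0554 in DRB. For complex IV the ratio was 0.366, 0.393 and 0.352 in Con and 0.183, 0.207 and 0.202 in DRB. For complex V it was 0.157, 0.103 and 0.125 in Con and 0.060, 0.0572 and 0.0609 in DRB. In all 3 complexes every DRB library lay below every Con library. Mitochondrial genes as a whole took 12.2% to 20.0% of all FPKM in Con and 23.9% to 26.4% in DRB. All other genes over mitochondrial genes thus also gave a lower ratio in every DRB library than in any Con library. The lack of overlap is therefore not particular to these complexes. Such a ratio shows unequal change of its parts, not which part changed.

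**Figure D5:**
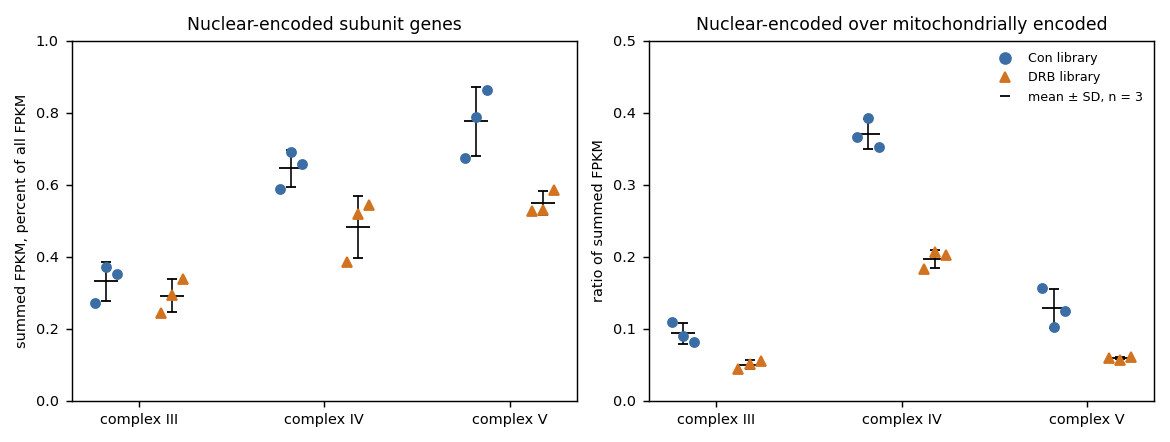
Left, summed FPKM of the nuclear-encoded subunit genes as percent of all FPKM, and right, that sum over the summed FPKM of the mitochondrially encoded subunits of the same complex, in each library with mean and SD of 3 libraries. The ratio on the right is lower in all DRB triangles than in all Con circles for each complex, with complex IV at 0.352 to 0.393 in Con and 0.183 to 0.207 in DRB. All other genes over mitochondrial genes, not drawn, also did not overlap between groups.

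Other genes that build or serve these complexes were read from lists chosen by function. Of 24 assembly factors of complex IV tested, 2 were called lower and 0 higher, with a median of -0.34. Over all genes tested, 0.95% were called lower and 1.53% higher. The unadjusted p was below 0.05 for 7 of the 24 in the lower and 0 in the higher direction, against 10.5% and 7.53% of all genes. Higd2a, a factor tied to complex IV and supercomplex assembly, had 226, 219 and 152 FPKM in Con and 22.6, 78.8 and 69.3 FPKM in DRB (log2 fold change -1.95 ± 0.43 SE, adjusted p = 0.0405). Coa3, needed for early assembly around the first mitochondrially encoded subunit, had 22.7, 34.3 and 24.1 FPKM in Con and 4.82, 6.54 and 10.7 FPKM in DRB (log2 fold change -1.78 ± 0.38 SE, adjusted p = 0.036). Leaving out 1 library at a time, Higd2a was called in 2 of 6 fits (without DRB library 2 or 3) and Coa3 in 1 (without DRB library 3). Cox17, the copper chaperone, and Higd1a were the most abundant of the list, with log2 fold changes of -0.23 ± 0.33 and 0.34 ± 0.34 (SE, adjusted p = 0.782 and 0.660).

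Assembly factors of the other complexes held no call. The unadjusted p was below 0.05 for 1 of complex II and 2 of complex V, all lower, where 10.5% of all genes were. The median was -0.83 over 3 tested for complex II, where Sdhaf2, the factor that attaches flavin to Sdha, had a log2 fold change of -1.41 ± 0.41 (SE, adjusted p = 0.101). It was -0.22 over 5 for complex III, led in level by Uqcc3, and -0.23 over 5 for complex V, led by Tmem70. The 10 regulators and carriers of ATP synthase had a median of -0.30 and no call, with Atpif1, the ATP synthase inhibitor, at -0.42 ± 0.30 and the phosphate carrier Slc25a3 at -0.26 ± 0.28 (SE, adjusted p = 0.518 and 0.686). Among 13 regulators of mitochondrial biogenesis the median was 0.05 with no call. In each of these 2 lists 1 gene had an unadjusted p below 0.05 in the lower and 1 in the higher direction. These counts are near the shares over all genes, 10.5% and 7.53%. Gabpa, the DNA-binding part of GABP, had a log2 fold change of -0.33 ± 0.28 and Tfb2m, a mitochondrial transcription factor, one of 0.63 ± 0.26 (SE, adjusted p = 0.585 and 0.236). Nrf1 was level, at -0.08 on the log2 scale. Complex I, for comparison, had a median of -0.42 over 36 subunits, with 33 negative, 1 called lower and 0 called higher. Its unadjusted p-values were below 0.05 for 8 subunits in the lower and 1 in the higher direction, against 10.5% and 7.53% of all genes. The called gene was Ndufs7 (log2 fold change -1.69 ± 0.32 SE, adjusted p = 0.0226), which was called in 0 of 6 fits without 1 library.

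Atp5d, Ndufs7 and Uqcr11 lie close together on chromosome 10, within 268 kb from the start of Atp5d to the end of Uqcr11 (GRCm38, 80138632 to 80406830), an interval singled out after its values were seen. Of 11 genes tested there, 10 had a negative log2 fold change and 6 had all DRB libraries below Con, with a median of -0.58. The 8 genes other than those 3 comprised 7 with a negative log2 fold change and 3 without overlap, with a median of -0.53. Over all genes tested 6659 of 11893 were negative, the median was -0.09 and, as above, 13.9% lay wholly below Con. The ribosomal protein gene Rps15, in the same interval, had a log2 fold change of -0.15 ± 0.24 (SE, adjusted p = 0.815). The median transcript GC content of the 11 genes was 58.9%. With the GC trend removed, Atp5d had a log2 fold change of -1.75 (adjusted p = 0.134), and the value of Uqcr11 is given above.

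Across the 48 members, Spearman's rho between transcript GC content and log2 fold change was -0.22, and it was -0.18 over 11884 genes tested. Member transcripts were short, with a median of 732 bases against 2259 over all genes, and rho between length and log2 fold change was -0.13. These are descriptions over genes that share libraries. With the GC trend removed, 36 of 48 members were negative and the median was -0.54, against -0.03 for all genes. In that fit 14 members had an unadjusted p below 0.05, all lower. Over all genes in it 6215 of 11884 were negative, and 9.14% had such a p in the lower and 8.56% in the higher direction.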

How the data were processed

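Smart-Seq2 libraries of 4-cell embryos (3 Con, 3 DRB) were deposited as 1 table each of FPKM per gene. Per the submitters' processing notes, cutadapt 1.16, STAR and the mm10 build were used. For FPKM, the program, annotation release, strand setting and treatment of multiply matching reads are not stated there. Groups follow the treatment label. The members and gene lists were chosen with earlier results of these data known.

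Genes with at least 1 FPKM in at least 3 libraries were tested on the log2(FPKM + 1) scale by limma 3.58.1 under R 4.3.3 (trended empirical Bayes, all 6 libraries, no covariates, Benjamini-Hochberg over 11893 genes, threshold 0.05). Fold changes on this scale understate those of low genes. In data simulated for this comparison over 11893 genes, changes were planted only in some genes, drawn from those above a set mean level. Planted log2 changes of 1, 2, 3 and 4 were recovered at 5.6%, 54.8%, 82.0% and 96.0%, and 3.56% of calls were false. Spread was drawn for each gene on its own, so shifts shared by many genes of a library were not simulated. The share of false calls under such shifts was not measured. Isoform shares were compared by exact two-sided permutation. Depth was read from the steps between low FPKM values (77.7% to 84.0% within 0.15 of a whole number, with 170 to 190 bases taken off the transcript length). It gives no exact counts, so no count test was run. Annotation was GENCODE M21 (GRCm38), with 1 principal transcript a gene. Copies were matches of at least 95% identity over at least 100 bases to the coding sequence (blastn 2.17.0). Promoters came from RefSeq.

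Named with full values were called members, the 4 lowest p-values and 2 highest levels of each complex, and the 2 highest log2 fold changes. Atp5b is also given in full and was chosen after its values were seen. In other lists these were called genes and the 2 most abundant. Other members are given in part. Alternatives were a pseudocount of 0.1, no filter, a minimum of 5 FPKM, median-of-ratios scaling, mitochondrial genes left out, a replicate block, each library left out, and removal of a GC trend (chosen after seeing the data). Same-numbered libraries did not deviate together (r from -0.0512 to 0.053), so they were treated as unpaired. Pairs of Con libraries correlated at 0.935 to 0.944, pairs of DRB libraries at 0.909 to 0.937, and mixed pairs at 0.869 to 0.915 (log2 values).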

Additional observations from a re-analysis of the deposited data

How the results depend on the processing

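Over all genes, 295 were called, against 164 with a pseudocount of 0.1, 6 without a filter, 171 with the replicate block, and 47 to 220 with 1 library left out, lowest without DRB library 1. With the replicate block 1 member was still called, and with it the called assembly factors of complex IV and complex I subunits both numbered 0. The numbers share no stated animal or batch and same-numbered libraries did not deviate together. The count of members called, 1, was 0 without a filter, 0 with the GC trend removed, and 0 to 1 with 1 library left out. For Uqcr11 the adjusted p without a filter was 0.187, and it ranged from 0.0128 to 0.187 over its alternatives. Among assembly factors of complex IV the 2 calls were 0 with a pseudocount of 0.1 and 0 after median-of-ratios scaling, and 0 to 2 with 1 library left out. For complex I, 0 to 1 were called with 1 library left out. With 1 library left out the median log2 fold change ran from -0.63 to -0.37 for all members, -0.87 to -0.66 for complex II, -0.58 to -0.31 for complex III, -0.48 to -0.04 for complex IV and -0.95 to -0.48 for complex V. Of the 24 genes named by the rule, 1 (Uqcr11) was called in the main fit, so only its call could be lost or reversed. Across 311 values of these genes under the alternatives, 5 (all of Uqcr11) were no longer past the threshold and 0 reversed its direction. The other 306 include all values of genes never called, which counted as unchanged even where their sign turned. Sdhd, for example, had a log2 fold change of 0.05, and of -0.23 without Con library 3. Libraries held an estimated 22400000 to 25300000 fragments, and in simulation 5.6% of log2 changes of 1 and 54.8% of log2 changes of 2 were recovered.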
